A study of Mus musculus with 10 samples.

Results

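The collagen chains are the genes that encode the polypeptides of collagen, the main structural protein of the extracellular matrix. They were taken as the protein-coding genes whose mouse symbol is Col, a number, a and a number. This rule found 44 genes among the 52636 gene identifiers of the count table. By the form of collagen they build, 11 are fibrillar, 9 network-forming, 6 type VI, 9 fibril-associated with interrupted helices, 2 multiplexins and 4 transmembrane chains, and 3 (Col7a1, Col26a1 and Col28a1) are anchoring or other chains.

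RNA was sequenced from inguinal white adipose tissue, a fat depot under the skin, in 10 libraries. The 5 knockout libraries were labelled as adipose Tcf7l2 knockouts (TCF7L2F/F; Adp-Cre), and the 5 control libraries came from TCF7L2F/F mice without the Cre transgene. All mice were C57BL/6, were 6 months old and ate a high-fat diet labelled 65%, and both groups carried the floxed alleles, although the genotype field calls the controls wild type. The labels disagree on how long the diet lasted, with 16 weeks in the diet field, 12 weeks in the descriptions and 4 months in the protocol. Adp-Cre is written without further detail, so the cells in which it acted are known only as adipose from the genotype field. RNA came from tissue and not from sorted cells, so cells other than adipocytes contributed to it, and fewer cells of a type and less RNA per cell cannot be told apart. Library numbers 6 to 10 belonged to knockouts and 1 to 5 to controls, and the labels do not say what this number stands for, so anything that followed it cannot be told apart from genotype. Each title also carries a further number of its own, which is mixed between the groups and may be that of a mouse, but no label states what it is. If some libraries shared a mouse, the p-values below describe the spread of these libraries and may be technical.

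Collagen chains wind around one another into a rope-like helix. Type I, III and V chains make the fibrils that give tissue its tensile strength, type IV chains make the sheet of the basement membrane, and type VI chains make beaded filaments between cell and fibril. In fat every adipocyte is wrapped in a basement membrane, most fibrillar collagen is made by fibroblasts and progenitor cells, and collagen accumulates in fat during obesity. Tcf7l2 encodes a transcription factor that binds DNA at the end of the Wnt pathway, of the TCF/LEF family.

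Libraries held between 14032866 and 17782073 counts, so 3 counts, taken as the floor, were worth 0.172 to 0.205 CPM. CPM here are counts scaled to a common total with TMM factors, which even out differences in library composition, and floors cover counting error only, since PCR copies are not independent molecules. Tcf7l2 averaged 5.83 ± 0.31 CPM in knockouts and 10.7 ± 0.91 CPM in controls (SD, n = 5 each), a log2 difference of -0.87 with an adjusted p of 6.1e-04. Every library followed its label, with 5.57 to 6.20 CPM in knockouts and 9.16 to 11.4 CPM in controls. A score of intronic-type transcripts was the mean log2 CPM of 786 tested genes annotated as TEC or sense intronic. It spanned 0.056 to 0.46 in knockouts and 0.38 to 1.27 in controls, where control 5 lay within the knockout range. With this score in the fit beside genotype, edgeR called 49 genes, against 2053 without it, so most calls were lost with it. Of the marker lists, adipocyte genes gave 1 higher and 2 lower of 8, and they summed to 28016 to 36814 CPM in knockouts and 26145 to 32694 CPM in controls. T cell genes gave 5 higher of 8, and summed to 20.1 to 124 CPM in knockouts and 12.8 to 26.8 CPM in controls. B cell genes gave 4 higher of 8, and summed to 853 to 1626 CPM in knockouts and 680 to 990 CPM in controls. Both sums were highest in knockout 1, and the groups overlapped in both. Gene by gene the difference was larger, with a median log2 fold change of 1.77 over the T cell list and 2.79 over the B cell list. All 8 genes of each list had positive values. No gene of the macrophage list (8), the mural list (9) or the skeletal muscle list (9) passed the test. Muscle genes summed to 60.7 to 712 CPM in knockouts and 59.4 to 538 CPM in controls, with knockouts 1 and 3 and control 5 at the top.

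A short motif was looked for in collagen messages, read from the genome annotation and not from these libraries. The miR-29 family is known to lower many collagen messages by pairing of its seed with the 3′ UTR. Its mature forms are given from RefSeq (GRCm38.p6), because their seed, bases 2 to 8 in capitals, is the same and sets the motif searched in the chains.
miR-29a-3p: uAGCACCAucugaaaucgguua
miR-29b-3p: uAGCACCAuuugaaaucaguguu
miR-29c-3p: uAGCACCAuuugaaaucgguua

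The complement of that seed, TGGTGCT, was searched on the sense strand of the annotated 3′ UTRs (GENCODE M21, GRCm38). It occurred in 24 of 43 chains with a UTR (55.8%), against 12.3% of 20626 protein-coding genes. Among UTRs of 685 to 1685.5 bases, the middle range of the chains, it occurred in 13 of 21 chains (61.9%), against 10.7% of 5717 genes. Matches lay in 9 of 10 fibrillar chains and 6 of 6 type IV chains. A match is a description of letters and not a shown site. The sites shown are those of the 2 chains that passed the test described below, Col6a2 and Col4a6, and of 3 abundant chains of the fibril, the basement membrane and the filament. Each is a 30-base stretch with the match in capitals.
Col6a2, chr10:76596170-76596199, minus strand: ggccacctctccatcccatctgTGGTGCTa
Col4a6, chrX:141166514-141166543, minus strand: tgctttcctgtttccatccatcTGGTGCTa
Col3a1, chr1:45348960-45348989, plus strand: ttccaacttcaaaatgtctcaaTGGTGCTa
Col4a1, chr8:11199761-11199790, minus strand: cgcctctgccaccgtcacaacaTGGTGCTa
Col6a3, chr1:90767411-90767440, minus strand: ctctgcacgtgacctgtcaataTGGTGCTa

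The 18 tested chains with a match had a median log2 fold change of 0.03, and the 13 tested chains without one had a median of 0.05. The medians of chains with and without the match therefore lay close together. Both chains that passed the test hold a match, but so do most tested chains, and Col6a2 rose while Col4a6 fell.

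The 250 bases before the transcription start are shown for those same 2 chains and for the partner chain encoded beside each on the same chromosome, from RefSeq (GRCm38.p6). Capitals mark matches on either strand to CTTTGAT or to CTTTGAA, which are TCF/LEF motifs, to the TATA box TATAAA, to the CAAT box CCAAT and to the GC box GGGCGG. On the other strand the GC box reads CCGCCC, and no motif here contains another.
Col6a2, chr10:76623631-76623880, minus strand: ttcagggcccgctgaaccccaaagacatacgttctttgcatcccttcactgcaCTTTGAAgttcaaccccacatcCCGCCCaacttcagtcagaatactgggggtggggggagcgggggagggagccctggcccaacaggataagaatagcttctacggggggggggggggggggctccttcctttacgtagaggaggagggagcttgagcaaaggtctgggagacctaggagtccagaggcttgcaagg
Col6a1, chr10:76726045-76726294, minus strand: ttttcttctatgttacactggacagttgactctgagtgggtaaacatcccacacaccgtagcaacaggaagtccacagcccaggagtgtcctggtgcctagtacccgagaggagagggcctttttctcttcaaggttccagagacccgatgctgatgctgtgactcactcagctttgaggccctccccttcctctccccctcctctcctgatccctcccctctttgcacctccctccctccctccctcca
Col4a6, chrX:141474077-141474326, minus strand: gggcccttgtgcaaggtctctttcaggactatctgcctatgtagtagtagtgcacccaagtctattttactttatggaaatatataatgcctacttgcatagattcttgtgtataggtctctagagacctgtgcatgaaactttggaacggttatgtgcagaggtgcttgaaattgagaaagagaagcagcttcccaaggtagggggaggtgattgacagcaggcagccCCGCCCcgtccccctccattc
Col4a5, chrX:141475169-141475418, plus strand: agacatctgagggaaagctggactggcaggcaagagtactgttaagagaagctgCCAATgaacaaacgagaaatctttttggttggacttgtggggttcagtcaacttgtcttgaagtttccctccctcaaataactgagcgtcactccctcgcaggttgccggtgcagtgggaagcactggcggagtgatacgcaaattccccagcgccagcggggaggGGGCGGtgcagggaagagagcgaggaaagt

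The Col6a2 window shown, before the upstream of its 2 RefSeq starts, holds CTTTGAA 197 bases before that start. The window before its other start (chr10:76623405-76623654) and the other windows shown hold neither TCF/LEF motif. Counted per window, 5 of the 38 RefSeq windows of 35 chains hold CTTTGAT or CTTTGAA, 1 each of Col6a2, Col15a1, Col13a1, Col9a1 and Col9a2, and 7.48% of all 32851 windows of this length do. TATAAA occurred in 12.4%, CCAAT in 33.8% and GGGCGG in 32.7% of all windows. The windows say only which letters they hold.

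Collagen chains accounted for 1.58 ± 0.17% of all counts in knockouts and 1.54 ± 0.13% in controls (SD, n = 5 each). The ranges, 1.30 to 1.73% in knockouts and 1.39 to 1.71% in controls, overlapped over most of their length. The composition was close as well. Fibrillar chains took 55.5 ± 0.93% of collagen counts in knockouts and 55.6 ± 1.5% in controls. Network-forming chains took 23.9 ± 0.51% in knockouts and 24.1 ± 1.8% in controls, and type VI chains took 13.5 ± 0.44% in knockouts and 13.4 ± 0.65% in controls. Col3a1 alone gave 35.5 ± 0.92% of collagen counts in knockouts and 35.8 ± 1.3% in controls.

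Read per kilobase of exons, the levels spanned several orders of magnitude. Col3a1 led with 576 ± 49.7 CPM per kb in knockouts and 558 ± 43.2 CPM per kb in controls. The basement membrane chain Col4a1 followed with 332 ± 23.4 CPM per kb in knockouts and 327 ± 14.4 CPM per kb in controls, and its partner Col4a2 with 192 ± 14.3 CPM per kb in knockouts and 178 ± 6.81 CPM per kb in controls. Col6a1 came next, at 148 ± 20.2 CPM per kb in knockouts and 149.6 ± 15.9 CPM per kb in controls. Below these, Col1a2, Col5a2, Col6a3, Col15a1, Col1a1, Col6a2 and Col5a3 lay between 58.9 and 92.6 CPM per kb in knockouts and between 47.5 and 90.1 CPM per kb in controls. In controls Col5a2 stood above Col1a2. Neighbours in each group's own order differed by less than the larger of their SDs, apart from Col6a3 over Col15a1 in controls (77.5 ± 9.47 against 64.5 ± 6.44 CPM per kb). With the length of the coding transcript in place of all exons, Col1a2 moved to place 3 in both groups. Col6a2 moved from place 10 in both groups to place 6 in knockouts and 7 in controls. Col5a1, Col18a1 and Col14a1 lay between 26.5 and 41.5 CPM per kb in knockouts and between 27.2 and 37.9 CPM per kb in controls, and every other chain lay at or below 10.4 CPM per kb in knockouts and 10.2 CPM per kb in controls.

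**Figure D1:**
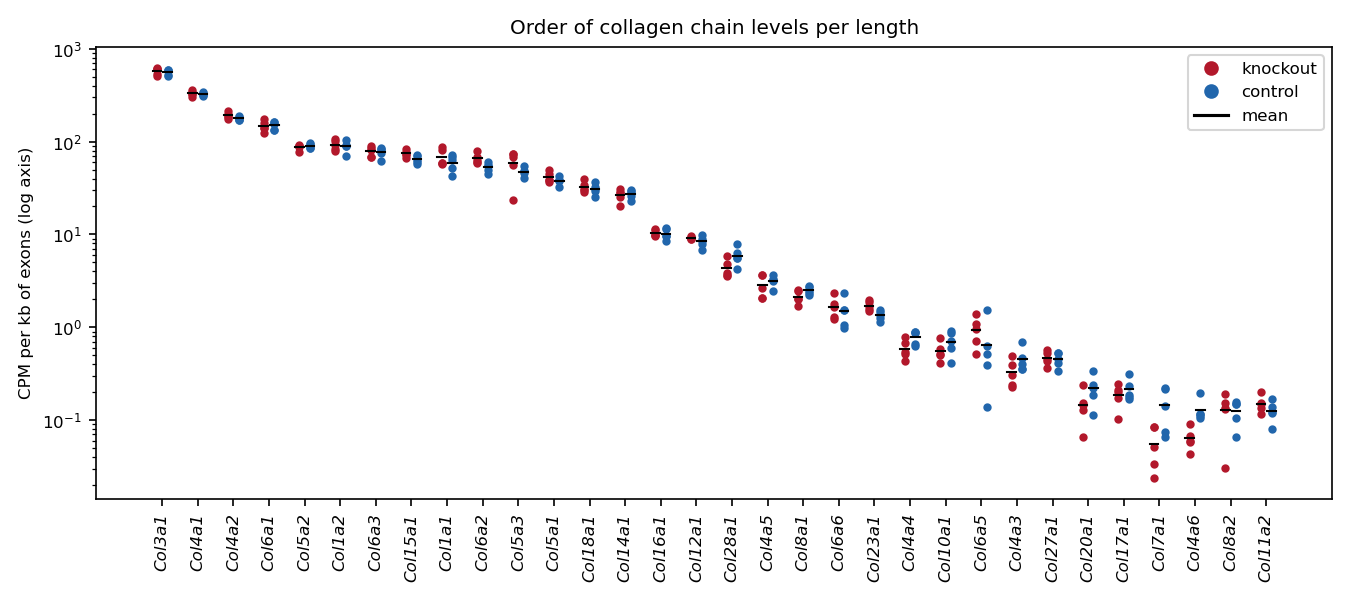
Level of each of the 32 tested collagen chains in CPM per kilobase of exons, on a log axis, in the 5 knockout libraries (red, left of each pair) and the 5 control libraries (blue, right), with the mean of each group as a black line. Chains run in the order of their control mean, from Col3a1 (576 CPM per kb in knockouts, 558 in controls) downwards, and for most chains the points of the groups lie on top of each other.

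The comparison of knockouts with controls asks how loss of Tcf7l2 in fat relates to each chain. Col6a2 rose and Col4a6 fell in knockouts, and the other 30 tested chains did not pass the test. That is 6.25% of the 32 tested chains, against 12.9% of all 15927 tested genes (5.84% higher and 7.05% lower). The edgeR quasi-likelihood test with Benjamini-Hochberg adjustment over all tested genes was used, and a chain was called at an adjusted p below 0.05. The other 12 of the 44 chains had too few counts to be tested. Over the tested chains the median log2 fold change, which is knockout over control throughout, was 0.04, with 19 positive and 13 negative values, and over all tested genes it was 0.00. The median size of the change, without its sign, was 0.19 for chains and 0.17 for all tested genes. For 15 of the 32 chains the 95% interval lay wholly within 0.5 on either side of 0, beside 9273 of all 15927 tested genes. An unadjusted p below 0.05 was reached by 7 chains, beside 4930 of all tested genes. The intervals give the range of change that remains possible for each chain, and they were widest for scarce chains.

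**Figure D2:**
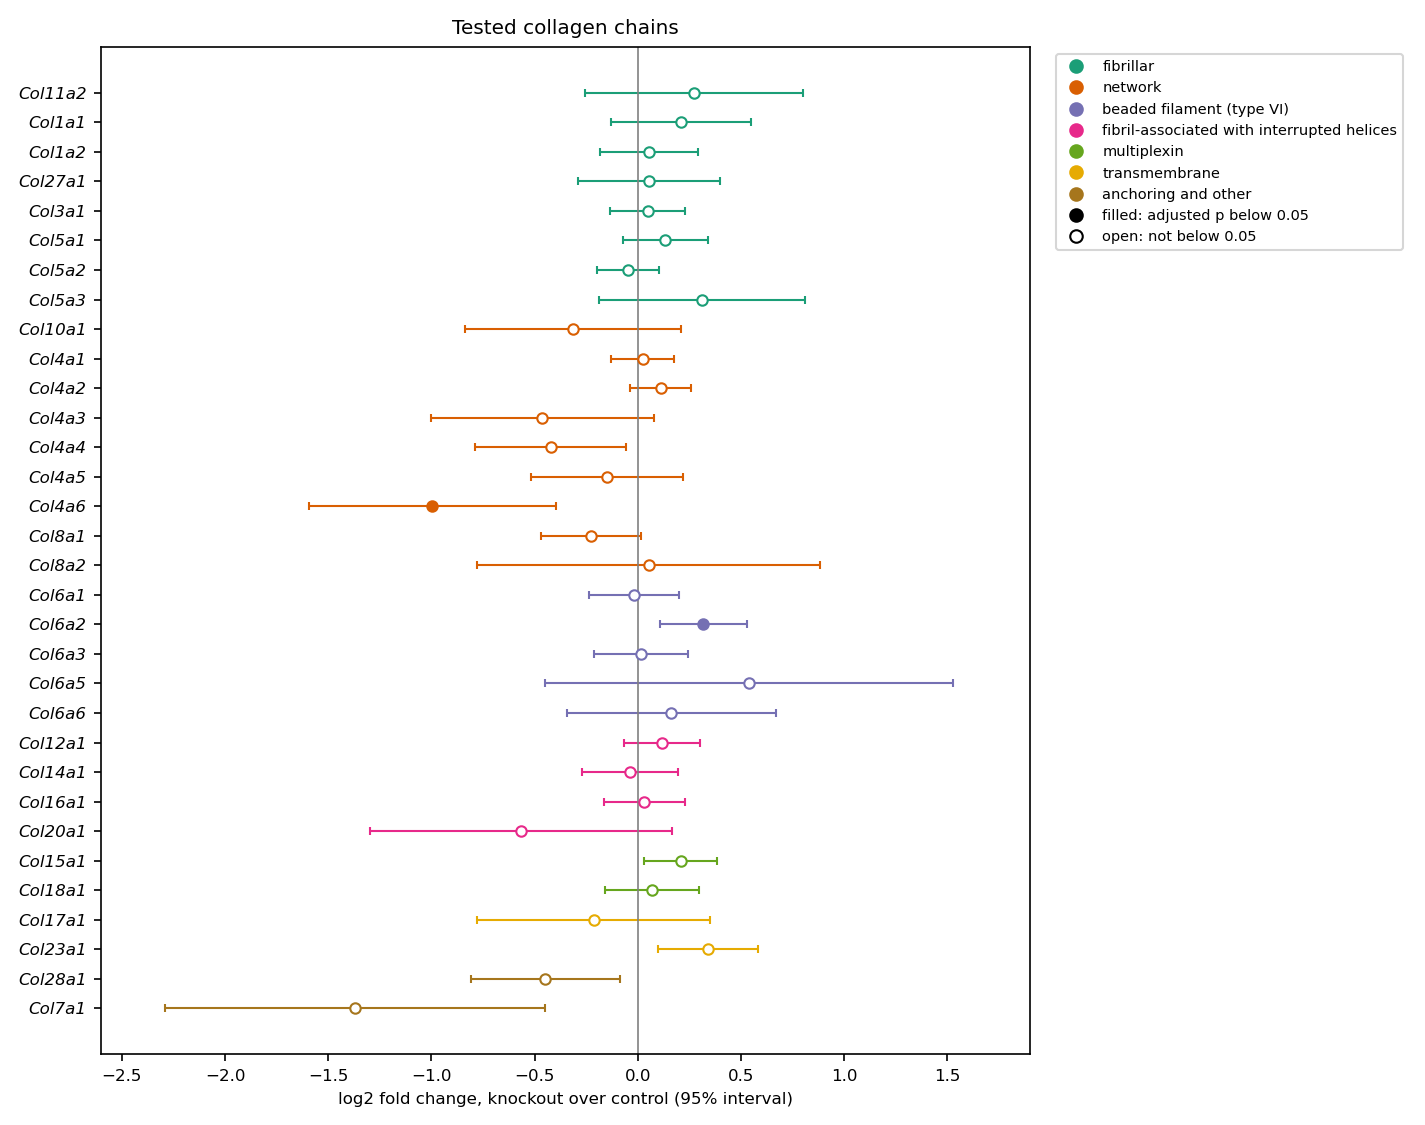
Log2 fold change, knockout over control, of the 32 tested collagen chains with 95% intervals, coloured by class. Filled points mark Col6a2 (0.32) and Col4a6 (-0.996), which passed the test, and intervals are narrow for abundant chains and wide for scarce ones such as Col7a1.

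Among the fibrillar chains, 8 of 11 were tested and none passed at an adjusted p below 0.05 in edgeR, nor at an unadjusted p below 0.05, with a median log2 fold change of 0.09. DESeq2 and limma-voom also called 0 of them. Col3a1, the chain of type III fibrils, had 5919.5, 6159.7, 5265, 5920.5 and 5018 CPM in knockout 1 to 5, against 5818, 5717, 4938, 5803 and 5092 CPM in control 1 to 5. The groups overlapped, and knockout 5 and control 3 were the lowest of each. Its log2 fold change was 0.05, with an interval of -0.14 to 0.23.

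Col1a1, which forms type I collagen with Col1a2, had 534, 571, 380.1, 388 and 383 CPM in the knockouts, against 450.3, 343, 278, 413 and 467 CPM in the controls. Knockouts 1 and 2 stood above all other libraries, and knockouts 3 to 5 lay among the controls. The difference of 0.21 on the log2 scale (interval -0.13 to 0.55) did not pass (adjusted p = 0.386). Col1a2 had 1309.5, 1273, 1047, 1148 and 978 CPM in knockouts, against 1292, 1123, 871, 1116 and 1135 CPM in controls. Its groups overlapped nearly throughout, at a log2 fold change of 0.06 (interval -0.18 to 0.29). Per kilobase of exons the ratio of Col1a1 to Col1a2 was 0.738 ± 0.080 in knockouts and 0.664 ± 0.080 in controls, with overlapping ranges. By coding transcript the same ratio was 0.352 ± 0.038 and 0.316 ± 0.038, so its level depends on the length used.

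Type V collagen sets the width of fibrils. Col5a1 had 384, 418, 329, 325 and 308 CPM in knockouts, against 327, 319, 275, 359 and 328 CPM in controls. Knockouts 1 and 2 were again the highest and the groups overlapped, with a log2 fold change of 0.13 (interval -0.07 to 0.34). Col5a2 had 854, 864, 882, 843 and 742 CPM in knockouts, against 809.7, 899, 816, 932 and 864 CPM in controls. Knockout 5 was the lowest library of all, and the log2 fold change of -0.05 had an interval of -0.20 to 0.10. Col5a3, a further type V chain, had 383, 503, 494, 461 and 162 CPM in knockouts, against 325, 310.1, 332, 371 and 278 CPM in controls. Knockouts 1 to 4 lay above every control and knockout 5 below every control. With all libraries its log2 fold change was 0.31 (adjusted p = 0.384), and without knockout 5 it was 0.51 (adjusted p = 0.019). The remaining tested fibrillar chains, Col11a2 and Col27a1, averaged 1.04 and 6.08 CPM in knockouts, against 0.862 and 5.87 CPM in controls.

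Markers of fibroblasts and progenitors summed to 8136 to 9927 CPM in knockouts and 10912 to 11992 CPM in controls, without overlap, and 1 of 10 passed the test. That gene, Gsn, held most of the sum, at 6058 CPM in knockouts and 8027 CPM in controls, and the part of these cells in the values of the fibrillar chains was not tested.

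**Figure D3:**
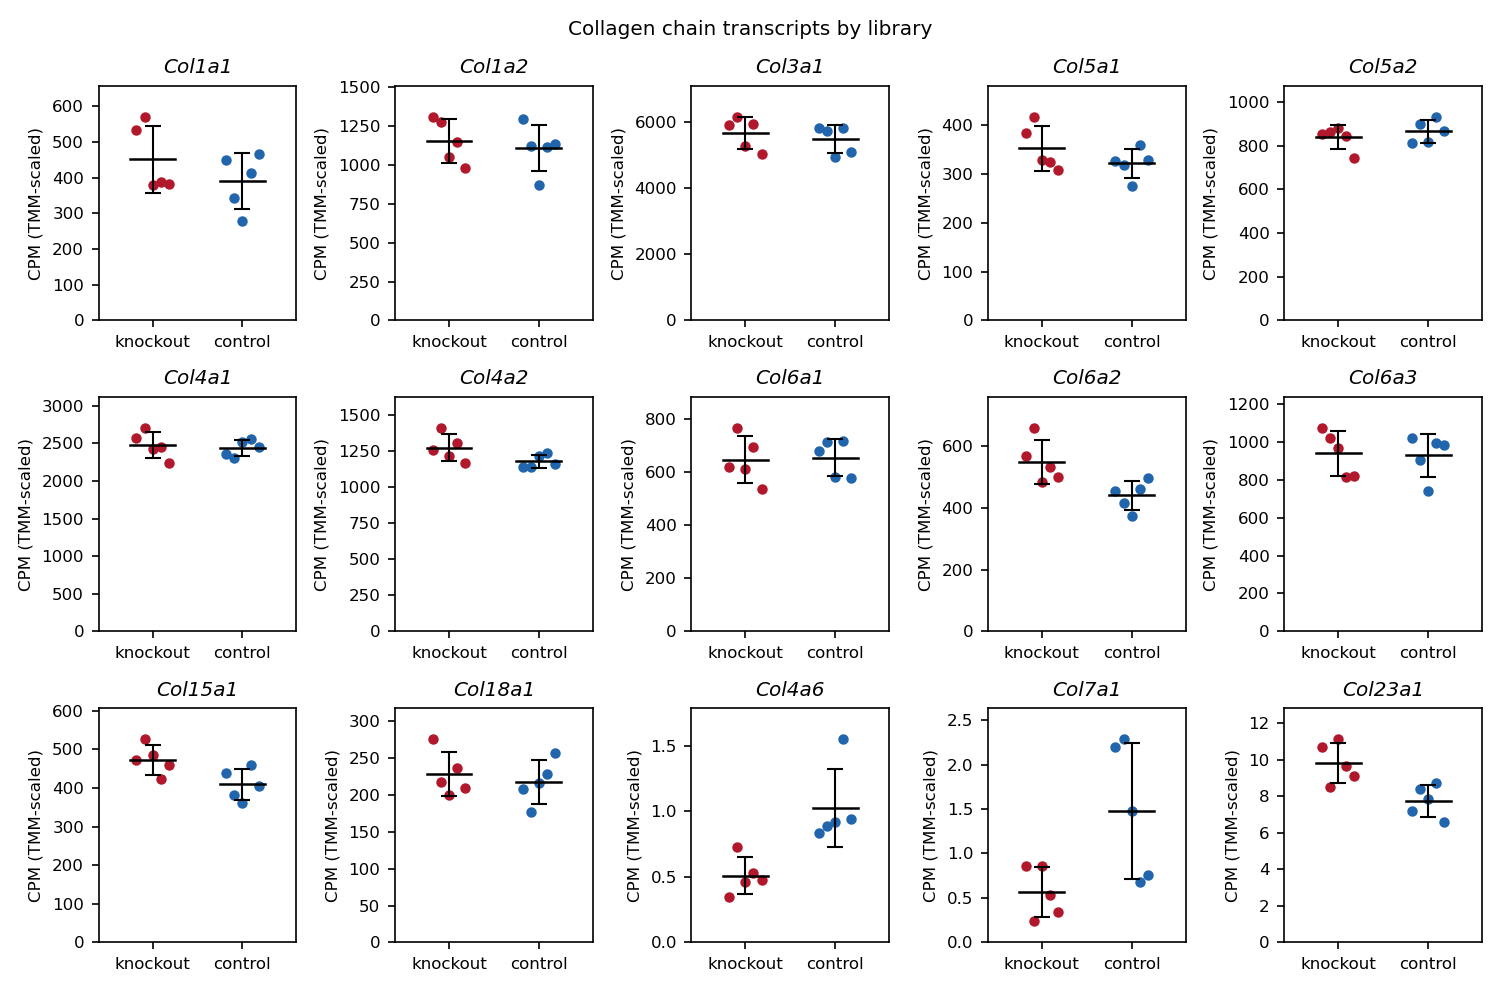
TMM-scaled CPM of 15 collagen chains in the 5 knockout libraries (red, left) and 5 control libraries (blue, right), each axis starting at 0, with the mean and SD of each group in black. The groups overlap in every panel but that of Col4a6, where all knockouts (0.345 to 0.730 CPM) lie below all controls (0.833 to 1.55 CPM).

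All 9 network-forming chains were tested, and 1, Col4a6, passed. Their median log2 fold change was -0.23, with 6 negative values and 3 positive. The chains Col4a1 and Col4a2, which together form the common type IV molecule of basement membranes, are divergent neighbours on chromosome 8 whose starts lie 21 bases apart. Col4a1 had 2568, 2711, 2426, 2457 and 2241 CPM in knockouts, against 2354, 2305, 2515, 2561 and 2457 CPM in controls. Both the highest and the lowest of these were knockouts, at a log2 fold change of 0.02 (interval -0.13 to 0.18). Col4a2 had 1262, 1414, 1217, 1309 and 1167 CPM in knockouts, against 1143, 1140.1, 1216, 1239 and 1160.2 CPM in controls. Knockouts 1, 2 and 4 exceeded all controls and the other 2 did not, at a log2 fold change of 0.11 (interval -0.04 to 0.26). The ratio of Col4a1 to Col4a2 per kilobase was 1.73 ± 0.057 in knockouts and 1.83 ± 0.031 in controls. The lowest control (1.79) lay below the highest knockout (1.80), and the ratio was not tested.

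Endothelial cells, which also make type IV collagen, had lower markers in knockouts. Of 12 endothelial genes 10 fell and none rose, and their sum was 982 to 1134 CPM in knockouts and 1179 to 1527 CPM in controls. Beside them the log2 fold changes of Col4a1 and Col4a2 were 0.02 and 0.11, and the part of endothelial cells in these values was not tested.

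The scarce type IV chains are found in the membranes of kidney, lung, smooth muscle and skin. Col4a6 had 0.345, 0.730, 0.462, 0.531 and 0.479 CPM in knockouts, against 0.833, 0.891, 0.922, 1.55 and 0.938 CPM in controls. Every knockout was below every control, and control 4 was the highest by a wide gap. It was the only tested chain whose groups did not overlap, where 8.99% of all tested genes did not. On the log2 scale the difference was -0.996 (interval -1.59 to -0.40, edgeR adjusted p = 0.036). These levels rested on 6 to 23 counts per library. Col4a6 also passed in limma-voom (adjusted p = 0.029). In edgeR it passed with library totals in place of TMM factors (adjusted p = 0.038) and with DESeq2 size factors (adjusted p = 0.037). The call was lost in 7 of 10 fits that left out a library (adjusted p up to 0.089), all but those without control 3, control 5 or knockout 2, in DESeq2 (adjusted p = 0.054), with no filter on low counts (adjusted p = 0.098), and with the score of intronic-type transcripts in the fit (-0.89, adjusted p = 0.483).

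Col4a5 is the partner of Col4a6 and its divergent neighbour on the X chromosome, with 1309 bases between the starts. It had 24.8, 14, 17.9, 24.5 and 13.9 CPM in knockouts, against 21.1, 22, 24.3, 21.8 and 16.5 CPM in controls. The groups overlapped throughout, and the difference of -0.15 on the log2 scale did not pass (adjusted p = 0.578). The ratio of Col4a6 to Col4a5 per kilobase was 0.0249 ± 0.012 in knockouts and 0.0415 ± 0.012 in controls, and knockout 2 (0.0440) lay within the control range.

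Col4a3 and Col4a4, whose starts lie 72 bases apart on chromosome 1, averaged 3.30 ± 1.1 and 6.25 ± 1.5 CPM in knockouts, against 4.56 ± 1.4 and 8.37 ± 1.4 CPM in controls. Their log2 fold changes were -0.46 (adjusted p = 0.227) and -0.42 (adjusted p = 0.112), and neither passed. The network chains of types VIII and X did not pass either. Col8a1, a chain of vessel walls, averaged 16.8 ± 2.65 CPM in knockouts and 19.6 ± 1.94 CPM in controls. Col8a2 averaged 0.578 ± 0.268 CPM in knockouts and 0.564 ± 0.177 CPM in controls, and Col10a1, a marker of cartilage that turns to bone, 1.75 ± 0.42 CPM in knockouts and 2.19 ± 0.64 CPM in controls.

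Type VI collagen is assembled from Col6a1, Col6a2 and a longer chain that is mostly Col6a3, and it is abundant in fat. Of the 5 tested type VI chains 1 passed, and the median log2 fold change was 0.16. Col6a2 had 569.9, 661, 485, 533 and 499 CPM in knockouts, against 453, 415, 376, 461 and 499 CPM in controls. Knockouts 1, 2, 4 and 5 lay above every control, knockout 5 only just (499.1 CPM, against 498.6 CPM in control 5), and knockout 3 lay below control 5, so the groups overlapped. The log2 fold change was 0.32 (interval 0.11 to 0.53), at an adjusted p of 0.049 in edgeR.

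This call was narrow. It also passed in DESeq2 (adjusted p = 0.014), in limma-voom (adjusted p = 0.028) and with no filter (adjusted p = 0.020). It remained in 2 of 10 fits that left out a library, without control 5 (0.37, adjusted p = 0.024) and without knockout 3 (0.36, adjusted p = 0.048), and the adjusted p reached 0.119 in the others. With library totals in place of TMM factors the adjusted p was 0.077. With the score of intronic-type transcripts in the fit it was 0.600 at a log2 fold change of 0.25. That score took the calls over all tested genes from 2053 to 49, so a call lost with it is not particular to this chain.

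Neither partner chain passed the test. Col6a1 had 621, 769, 611, 696 and 537 CPM in knockouts, against 681, 716, 583, 718 and 578 CPM in controls. The highest and the lowest values were both knockouts, at a log2 fold change of -0.02 (interval -0.24 to 0.20), a sign that turned without some single libraries. Col6a3 had 1075, 1020.2, 966, 815 and 819 CPM in knockouts, against 1021, 903, 741, 991 and 983 CPM in controls. These groups overlapped throughout, at 0.02 (interval -0.21 to 0.25). The ratio of Col6a2 to Col6a1 per kilobase, formed within each library, was 0.483, 0.452, 0.418, 0.403 and 0.489 in knockouts, against 0.350, 0.305, 0.339, 0.338 and 0.454 in controls. Every knockout exceeded controls 1 to 4, and control 5 lay among the knockouts. The mean ratio was 0.449 ± 0.038 in knockouts and 0.357 ± 0.056 in controls, given as a description with no test. By coding transcript the mean ratio was 0.886 ± 0.075 in knockouts and 0.705 ± 0.111 in controls, so its level depends on the length used. Col6a1 and Col6a2 lie on the same strand of chromosome 10 with 85161 bases between them.

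**Figure D4:**
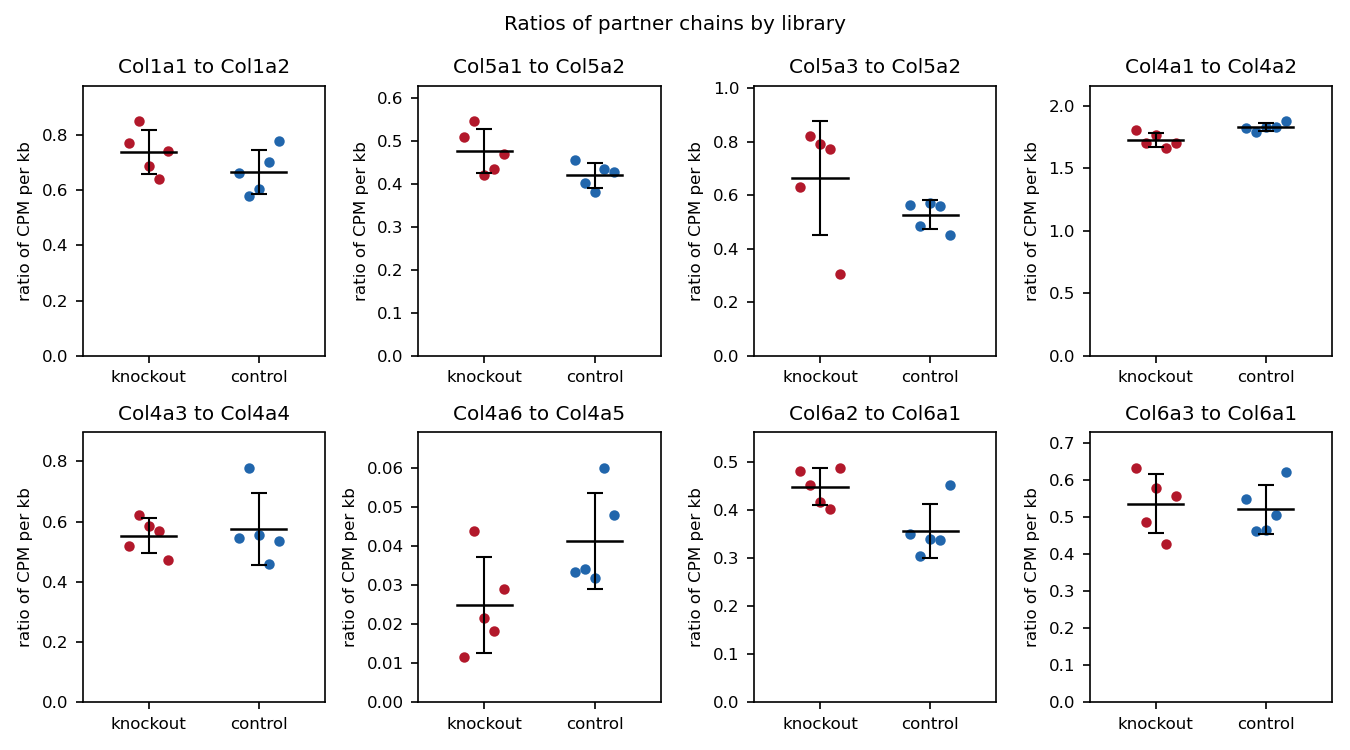
Ratio of CPM per kilobase of exons between partner chains within each library, knockouts in red on the left and controls in blue on the right, each axis starting at 0, with the mean and SD in black. Col6a2 to Col6a1 lies at 0.403 to 0.489 in knockouts and at 0.305 to 0.454 in controls, and control 5 is the control among the knockouts.

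The other long chains were scarce. Col6a5 averaged 8.76 ± 3.23 CPM in knockouts and 6.07 ± 5.01 CPM in controls, and Col6a6 averaged 15.2 ± 4.11 CPM in knockouts and 13.6 ± 4.97 CPM in controls. Control 4 held 14.5 CPM of Col6a5, more than any other library, and the log2 fold change of Col6a5 was 0.54 with all libraries and 1.14 without control 4 (adjusted p = 0.086). Both chains had wide intervals, and with all libraries neither passed the test (adjusted p = 0.447 and 0.672).

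Of the fibril-associated chains with interrupted helices, which sit on the surface of fibrils, 4 of 9 were tested and none passed, by edgeR, DESeq2 or limma-voom, or at an unadjusted p below 0.05. Col12a1 averaged 139 ± 4.26 CPM in knockouts and 128 ± 18 CPM in controls. Col14a1 averaged 186 ± 29.0 CPM in knockouts and 191 ± 19.0 CPM in controls, and Col16a1 averaged 70.4 ± 5.76 CPM in knockouts and 68.9 ± 9.26 CPM in controls. The intervals of these 3 lay within 0.5 of 0 on the log2 scale. Col20a1 was scarce, at 0.752 ± 0.313 CPM in knockouts and 1.13 ± 0.428 CPM in controls.

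The multiplexins are basement membrane collagens with glycosaminoglycan chains. Col15a1 had 472, 528, 486, 422 and 459 CPM in knockouts, against 439, 381, 361, 461 and 406 CPM in controls. Knockouts 1, 2 and 3 were above every control, and the log2 fold change of 0.21 (interval 0.03 to 0.39) did not pass after adjustment (adjusted p = 0.106). Col18a1, whose end can be released as endostatin, had 276, 217, 200.2, 237 and 209.7 CPM in knockouts, against 208, 177, 216, 229 and 257 CPM in controls. Its groups overlapped throughout, at 0.07 (interval -0.16 to 0.30).

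Among the transmembrane chains, Col23a1 averaged 9.81 ± 1.09 CPM in knockouts and 7.75 ± 0.88 CPM in controls. It had 10.7, 8.51, 11.1, 9.62 and 9.10 CPM in knockouts, against 7.20, 8.40, 7.87, 8.72 and 6.56 CPM in controls. Only knockout 2 lay below the highest control, at a log2 fold change of 0.34 with an adjusted p of 0.063 in edgeR. DESeq2 (adjusted p = 0.042) and limma-voom (adjusted p = 0.048) called Col23a1. It passed in 0 of 10 edgeR fits that left out a library (adjusted p 0.063 to 0.140). Nor did it pass in edgeR with library totals (adjusted p = 0.133), with no filter (0.087) or with the score of intronic-type transcripts (0.190). Col17a1, a chain of the skin's attachment to its basement membrane, averaged 1.12 ± 0.318 CPM in knockouts and 1.30 ± 0.364 CPM in controls.

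Col7a1 makes the anchoring fibrils under the epidermis. It had 0.862, 0.243, 0.858, 0.531 and 0.342 CPM in knockouts, against 2.20, 2.29, 1.48, 0.676 and 0.762 CPM in controls. Controls 1 to 3 were above every knockout, and controls 4 and 5 lay among the knockouts. The log2 fold change of -1.37 (interval -2.29 to -0.45) missed the threshold in edgeR (adjusted p = 0.052), on 4 to 37 counts per library, and passed in DESeq2 (adjusted p = 0.026) and limma-voom (adjusted p = 0.038). With the score of intronic-type transcripts in the fit it was -0.43 (adjusted p = 0.834). Of 8 epithelial marker genes 7 were under 1 CPM, and their sum was 1.28 to 2.76 CPM in knockouts and 1.96 to 3.93 CPM in controls. The 1 tested marker, Trp63, was lower in knockouts, at 0.851 to 1.45 CPM in knockouts and 1.55 to 2.70 CPM in controls and a log2 fold change of -0.75 (edgeR adjusted p = 0.045), and its groups did not overlap. The part of skin cells in the Col7a1 values was not tested.

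Col28a1, a chain found around peripheral nerve, averaged 21.3 ± 4.81 CPM in knockouts and 29.0 ± 6.5 CPM in controls. Its log2 fold change of -0.45 (interval -0.81 to -0.08) had an adjusted p of 0.093 in edgeR. It passed in limma-voom (-0.51, adjusted p = 0.023), with no filter (adjusted p = 0.031), and in edgeR without control 5 (adjusted p = 0.028) or knockout 4 (adjusted p = 0.039). Of 10 Schwann cell markers 8 were tested, of which 3 fell and none rose. Of their log2 fold changes 5 were negative and 3 positive, at a median of -0.49, and 3 of the 10 markers were under 1 CPM. The summed level of these markers, in which abundant genes weigh most, was 243 to 256 CPM in knockouts and 232 to 271 CPM in controls. Their part in the Col28a1 values was not tested.

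The 12 chains that were not tested include the cartilage chains Col2a1, Col9a1, Col9a2, Col9a3 and Col11a1. All 8 cartilage and bone markers were under 1 CPM too. Col2a1 had 4 counts in all knockouts together and 1 count in all controls. Col11a1 averaged 0.310 ± 0.218 CPM in knockouts and 0.611 ± 0.161 CPM in controls, with knockout 5 among the controls. Col19a1 was the other chain without overlap, at 0.0660 to 0.205 CPM in knockouts and 0.238 to 0.430 CPM in controls, on 1 to 7 counts per library. Col24a1, Col6a4, Col22a1, Col13a1, Col25a1 and Col26a1 averaged between 0.132 and 0.725 CPM in knockouts and between 0.208 and 0.521 CPM in controls.

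Across chains, the same libraries often held the lowest or highest value of their group, which was not counted for other genes. Among the 16 chains that averaged at least 50 CPM, knockout 5 was the lowest knockout for 9 and knockout 2 the highest for 9. Control 3 was the lowest control for 9, and control 4 the highest for 7. In this abundant set 13 of 16 intervals lay within 0.5 of 0, beside 3468 of the 3982 tested genes at or above the same level. Of the log2 fold changes of these chains 13 were positive and 3 negative, beside 2430 positive and 1552 negative among those genes. The median was 0.06 for the chains and 0.05 for those genes. Of those 3982 genes 17.2% were called, and of the 16 chains 1 was.

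The proteins that fold, trim, link and bind collagen were described from 7 lists of 89 genes. Of these 84 were tested, 5 rose and 6 fell, with a median log2 fold change of -0.00, at a share called of 13.1% beside the 12.9% of all tested genes. Their adjusted p-values are from the same edgeR fit.

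For folding and modification in the endoplasmic reticulum, 2 of 18 tested genes rose and 1 fell. Plod2, which hydroxylates lysines of the collagen telopeptides for later cross-links, averaged 21.2 ± 2.45 CPM in knockouts and 33.0 ± 4.62 CPM in controls (-0.64 on the log2 scale, adjusted p = 0.0057). Tmem38b, an ion channel of that compartment, averaged 45.0 ± 5.59 CPM in knockouts and 31.5 ± 4.30 CPM in controls (0.51, adjusted p = 0.014). Ppib, a prolyl isomerase of the collagen helix, averaged 82.6 ± 8.58 CPM in knockouts and 63.9 ± 5.02 CPM in controls (0.37, adjusted p = 0.016), and other genes cover 25% of its exonic bases. The groups did not overlap for these 3. Serpinh1, the collagen chaperone, averaged 906 CPM in knockouts and 884 CPM in controls and did not pass.

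For export and trimming, 2 of 11 rose and 1 fell. Pcolce2, which speeds the removal of the procollagen C-terminal end, had 407, 419, 573, 444 and 602 CPM in knockouts, against 237, 235, 246, 265 and 229.7 CPM in controls. Every knockout exceeded every control by a wide margin, at a log2 fold change of 1.01 (interval 0.77 to 1.25, adjusted p = 6.1e-04). Adamts2, which removes the N-terminal end, averaged 205 ± 12.5 CPM in knockouts and 167 ± 9.70 CPM in controls (0.29, adjusted p = 0.016). Tll1, a protease that removes the C-terminal end, averaged 5.49 ± 0.74 CPM in knockouts and 8.83 ± 1.2 CPM in controls (-0.68, adjusted p = 0.011). Bmp1 and Pcolce, of the same step, did not pass, at 0.05 and -0.19.

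None of the 5 lysyl oxidase genes, which cross-link fibrils, passed in edgeR, and none had an unadjusted p below 0.05. Lox averaged 355 CPM in knockouts and 354 CPM in controls. Of 12 tested fibril-associated proteins 2 fell. Comp, which binds fibrils, averaged 4.78 ± 1.37 CPM in knockouts and 8.27 ± 1.11 CPM in controls (-0.79, adjusted p = 0.019), and Podn, a small leucine-rich protein, 21.7 ± 2.12 CPM in knockouts and 28.3 ± 2.80 CPM in controls (-0.38, adjusted p = 0.020).

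Of 16 tested partners in the basement membrane 1 fell, the laminin chain Lama3, at 4.27 ± 0.41 CPM in knockouts and 6.47 ± 0.80 CPM in controls (-0.60, adjusted p = 0.016). The other 15 did not pass. Of the 16 log2 fold changes 13 were negative, at a median of -0.11, where 7961 of all 15927 tested genes were negative. Among 11 tested receptors, Itga1, the integrin chain that binds type IV collagen, averaged 176 ± 18.5 CPM in knockouts and 244 ± 21.8 CPM in controls (-0.47, adjusted p = 0.0085). Mrc2, which takes up collagen for breakdown, averaged 218 ± 15.7 CPM in knockouts and 174 ± 17.4 CPM in controls (0.33, adjusted p = 0.022). None of the 11 TGF-beta inputs to collagen genes passed in edgeR, and 1 had an unadjusted p below 0.05.

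Of the 11 calls 9 held in all 10 fits that left out a library, and Podn and Mrc2 in 8. With the score of intronic-type transcripts in the fit Plod2 alone still passed (adjusted p = 0.010).

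**Figure D5:**
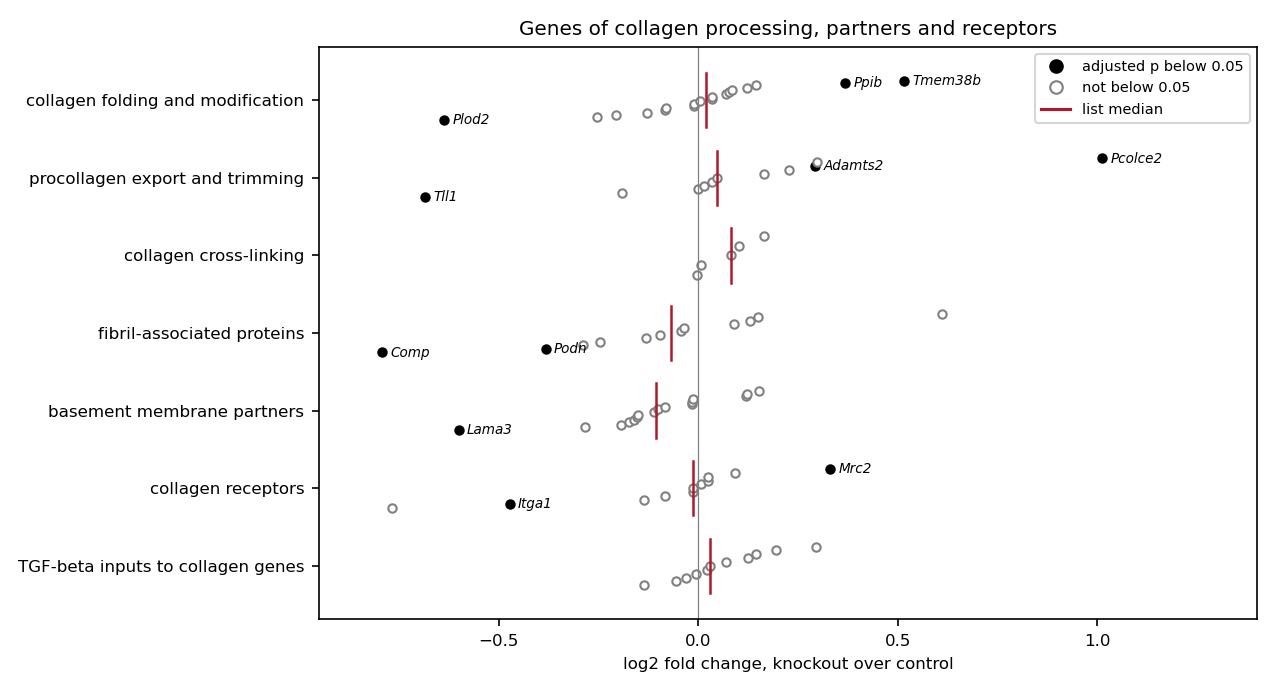
Log2 fold change, knockout over control, of the 84 tested genes of the 7 lists of collagen processing, partners and receptors, with list medians as red lines. Filled points with names are the 11 genes that passed the test, from Pcolce2 (1.01) to Comp (-0.79), and open points are those that did not.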

How the data were processed

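Read counts per gene were deposited by the authors in a single table of whole numbers for all 10 libraries. The libraries were made with a stranded total RNA kit after ribosomal RNA removal, per the labels' protocols. Per the submitters' processing notes, the tools were STAR 2.5.2b, featureCounts 1.5.1 and DESeq2 1.16.0 and the build GRCm38. Overlapping genes may share counts, the annotation, the strand setting and the handling of multiply matching reads being not given in the sources used here. Members and classes came from symbols and positions in GENCODE M21.

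Counts were filtered with filterByExpr by group (15927 genes left), scaled by TMM and compared with the two-sided edgeR 4.0.16 quasi-likelihood test in R 4.3.3, adjusted by Benjamini-Hochberg over all tested genes. The script was tested on simulated data. Alternatives were DESeq2 1.42.0, limma 3.58.1 voom, other scalings, no filter, a score of intronic-type transcripts as covariate, and leaving out each library. Log2 fold changes are knockout over control, and intervals are 95%. The 20 pairs of libraries within a group differed by more than sampling noise (chi-square per degree of freedom 6.57 to 26.2), and each was counted as 1 replicate. This does not show that they came from different mice, since separate preparations from a single mouse can also differ by more than sampling noise. Replicates are numbered in record order. Levels per kilobase used the union of exons.

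The members, classes, gene lists and alternatives were chosen with earlier results of these data known. The naming rule gave each library's value for called chains and for 12 main chains, ranges or means for the others, and up to 3 called genes of smallest p from each list. Values per library of Col5a3, Col4a5, Col7a1, Col23a1 and Pcolce2 and the motif searches were added after their values were seen. Marker lists covered adipocytes, fibroblasts and progenitors, endothelium, mural cells, Schwann cells, skeletal muscle, epithelium, macrophages, T cells, B cells, mesothelium, and cartilage and bone. Of 5 mesothelial genes 4 were under 1 CPM and 0 passed.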

Additional observations from a re-analysis of the deposited data

Results flagged for a closer look

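In each group of 5, a library was picked out when its gap to the nearest other exceeded Dixon's critical value for that group's range, which chance alone does in about 1 of 20 groups. Of 88 groups (44 chains, each in knockouts and controls) 5 were picked out. Col5a2 was lowest in knockout 5, at 742 CPM, the library that was also lowest for 8 other abundant chains. Col4a6 was highest in control 4, at 1.55 CPM, and without that library its log2 fold change was -0.81 (edgeR adjusted p = 0.089). The others were untested chains with few counts. Col11a1 reached 0.685 CPM in knockout 5, Col6a4 reached 2.18 CPM in knockout 1 (38 counts), and Col2a1 reached 0.0637 CPM in control 2 (1 count).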

How the results depend on the processing

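The main edgeR fit called 1 chain higher (Col6a2), 1 lower (Col4a6), 2053 genes and 11 pathway genes. Higher chains numbered 0 with library totals, 2 with DESeq2, 2 with limma-voom and 0 with the intronic-type covariate. Lower chains numbered 2 with no filter (Col7a1 and Col28a1), 1 with DESeq2 (Col7a1), 3 with limma-voom (Col4a6, Col7a1 and Col28a1) and 0 with the covariate. All genes numbered 3605 with limma-voom and 49 with the covariate, which left 1 pathway gene. Leaving out a library gave 0 to 1 higher chains, 0 to 3 lower chains, 537 to 3094 genes and 9 to 14 pathway genes. The causes were not tested. Of 512 fold changes of tested chains under the alternatives, 443 kept direction and side of the threshold, 20 lost the threshold, 13 gained it and 36 changed sign, 0 of them past the threshold. With the covariate these were Col6a1 (0.22), Col18a1 (-0.080), Col20a1 (0.14), Col17a1 (0.058), Col5a2 (0.050), Col4a5 (0.20), Col10a1 (0.30) and Col4a3 (0.021). With library totals they were Col4a1 (-0.0066), Col16a1 (-0.0037) and Col6a3 (-0.013), with limma-voom Col14a1 (0.013), Col27a1 (-0.025) and Col8a2 (-0.024), and with no filter Col6a1 (0.011). Leaving out a library gave Col6a1 -0.085 to 0.044, Col18a1 -0.0042 to 0.14, Col14a1 -0.093 to 0.055, Col1a2 -0.017 to 0.12, Col4a1 -0.0069 to 0.062, Col16a1 -0.028 to 0.092, Col27a1 -0.034 to 0.13, Col6a3 -0.052 to 0.066 and Col8a2 -0.12 to 0.29. No paired analysis was possible because each library carries its own number in the labels and replicate numbers were given in record order. Depth limits the 12 untested chains and those of a few counts, such as Col4a6 and Col7a1.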
